A study of Mus musculus with 6 samples.

Results

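The 42 genes described here encode molecular chaperones and stress-response factors, and they fall into 3 arms that are reported apart. The heat shock arm holds 15 genes of the cytosolic and mitochondrial chaperones, the endoplasmic reticulum (ER) arm holds 19 genes of ER folding, degradation and stress sensing, and the ATF4 arm holds the transcription factor gene Atf4 and 7 genes that it is known to induce. Members were chosen by gene symbol, with earlier results of these data known. All 42 were matched to rows of the 47729 gene IDs in the deposited count table. Of these, 41 were among the 17365 genes with enough counts to be tested, and Fgf21 was not.

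Cytosolic chaperones keep proteins folded, and when unfolded protein accumulates the transcription factor HSF1 binds heat shock elements and induces HSP70, HSP110, HSP90 and their J-domain partners. In the ER, the sensors IRE1 (Ern1), PERK (Eif2ak3) and ATF6 respond to unfolded protein by inducing chaperones and degradation factors through spliced XBP1 and cleaved ATF6. PERK also slows translation and favours production of ATF4, which induces amino acid synthesis genes, the pro-apoptotic factor CHOP (Ddit3) and the circulating hormones FGF21 and GDF15. Heart muscle expresses several small heat shock proteins at high levels, and they bind actin, titin and desmin structures.

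Bulk RNA sequencing was done on left ventricular myocardium of mice 9 days after TAC surgery (transverse aortic constriction), in which a ligature on the aortic arch makes the left ventricle pump against raised pressure. The Treg group (3 libraries) is, by the title of the study, the group given CD28-deprived regulatory T cells that had been induced in vitro, and the Control group (3 libraries) had the same operation at the same time. The labels do not say what the Control group received, nor the strain, sex or age of the mice, the dose of cells or whether each library came from its own animal. The p-values therefore measure the spread between these libraries, which may be technical, and no unoperated heart was analysed here.

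Library totals lay between 28937253 and 29979080 estimated counts, so depth hardly differed. Levels are given as CPM, the count scaled to a library total adjusted with TMM factors, and means are given with their SD. The label of the tissue fitted its markers: all 10 cardiomyocyte genes listed were detected, with a summed level of 51446 to 69652 CPM in Treg libraries and 41841 to 59966 CPM in Control libraries. The median log2 fold change of these 10 genes was 0.29, with 8 of them positive, and 4 were higher in every Treg library than in any Control library (against 13.7% of all genes). At an unadjusted p under 0.05 edgeR marked 3 of them, all higher in Treg (against 8.23% of all genes), and neither edgeR nor DESeq2 called any at an adjusted p under 0.05. Control replicate 3 stood apart, with correlations of 0.9359 to 0.9571 to the other libraries over all tested genes, and it was the highest library for 33.33% of all genes and the lowest for 31.88%. Its summed erythroid markers were at 291 CPM, against 1072 to 2846 CPM in the other libraries, and its neutrophil markers at 40.1 CPM, against 7.05 to 19.0 CPM. Summed plasma cell and B cell markers were at 59.4 CPM in it, against 10.6 to 25.5 CPM elsewhere. T cell markers were at 17.7 CPM, against 3.10 to 5.15 CPM. Gene by gene, Control replicate 3 was highest for 1 and lowest for 2 of the 4 tested plasma cell and B cell markers, and highest for 1 of the 3 tested T cell markers. It was also the lowest library for 6 of the 10 cardiomyocyte markers, and the part of these cell types in the results that depend on it was not tested. Treg replicate 3 held transcripts of atrial muscle, with Myl7 at 37.7 CPM and Sln at 12.5 CPM, against at most 0.216 CPM for either gene in any other library. Myl4, another atrial gene, was at 68.5 CPM in that library and at most 4.66 CPM elsewhere. The other listed atrial markers did not share this pattern: Nppa was highest in Control replicate 1, at 1431 CPM, and Tbx5 in Control replicate 3, at 22.9 CPM. Summed over all 5 atrial markers, the level was 595, 654 and 1030 CPM in Treg libraries and 1448, 814 and 252 CPM in Control libraries. In Control replicate 1, Nppa alone gave 1431 of the 1448 CPM, so that sum does not reflect Myl7, Sln and Myl4. Values without replicate 3 of either group are given beside the results they move most, and the plot of fold changes shows them for all 41 tested members. In bulk tissue, fewer cells of a type and less RNA per cell cannot be told apart.

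Of the members higher in the Treg libraries, Hspb6, Herpud1 and Hsph1 had the smallest p, and of those lower Asns had, but by the main test no member passed the threshold. Replicate 3 of both groups weighed heavily in the value of Hsph1, which was 1.35 on the log2 scale with these libraries and 0.44 without them. That test, edgeR's quasi-likelihood F test with Benjamini-Hochberg adjustment at 0.05, called 0 of 41 members and 0 of 17365 genes (0%). At an unadjusted p under 0.05 edgeR marked 6 of the 41 members, 4 higher and 2 lower in Treg, against 16.5% of all genes (8.23% higher and 8.31% lower). At an adjusted p under 0.1 edgeR called 0 members, against 0.472% of all genes. DESeq2 called 3 members at an adjusted p under 0.05, all higher in Treg (Hspb6, Herpud1 and Hsph1). This compares with 3.9% of the 16673 genes given an adjusted p, 1.93% higher and 1.97% lower in Treg. For Hspa1a and Hspa1b it gave neither an unadjusted nor an adjusted p, and limma-voom called no gene. The Treg and Control libraries did not overlap for 8 of the 41 members, 5 higher and 3 lower in Treg, against 25.4% of all genes, 13.7% higher and 11.7% lower. The members' counts therefore lay near the background for unadjusted p and for non-overlap.

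The log2 fold changes (Treg over Control) of the heat shock arm had a median of 0.23, with 11 of 15 members above 0. The ER arm had 8 of 19 above 0 and a median of −0.08. The ATF4 arm had 3 of its 7 tested members above 0 and a median of −0.07, and the median over all genes tested was −0.02. Without Treg replicate 3 the heat shock median was −0.08, and without Control replicate 3 it was 0.41. The arms are described by these counts and medians alone.

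**Figure D1:**
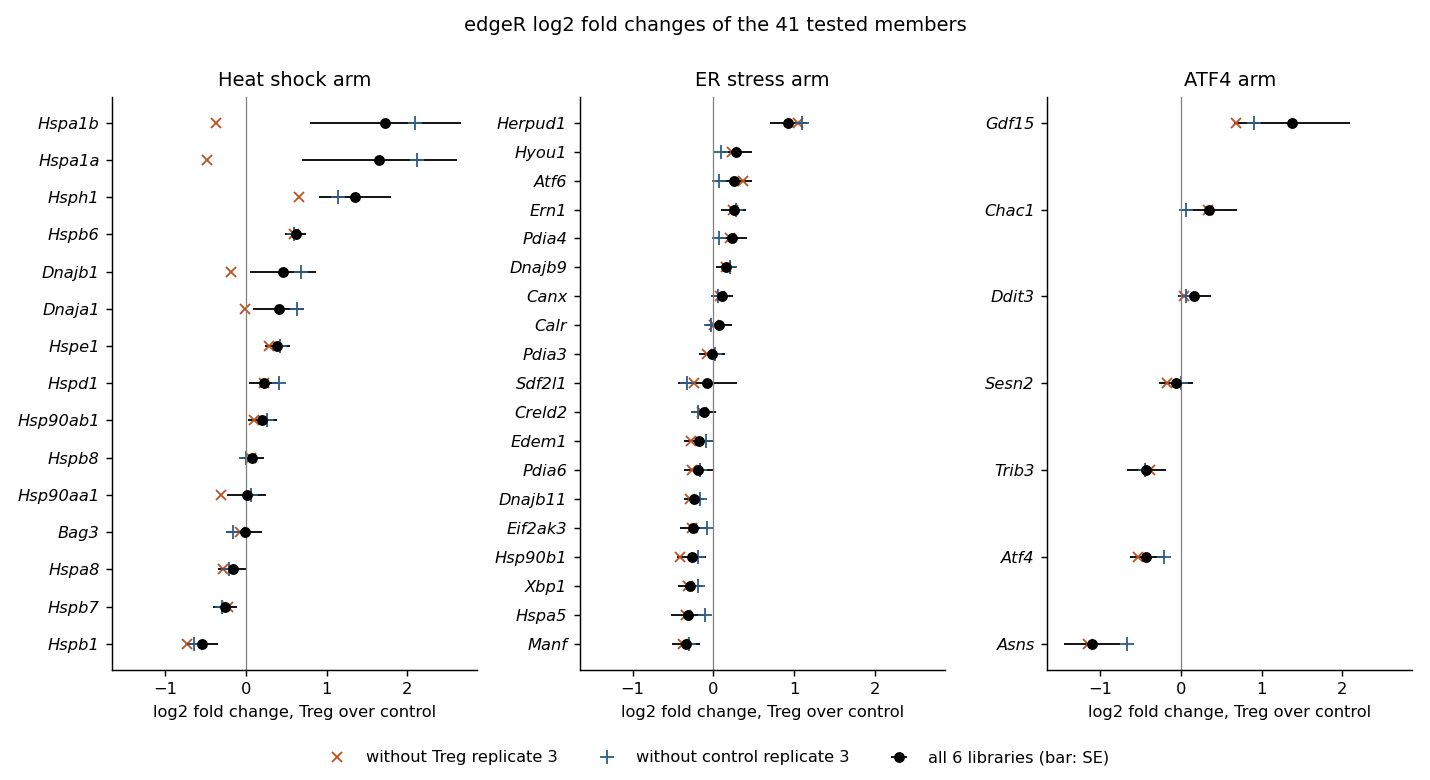
Log2 fold change of each of the 41 tested members (Treg over Control, horizontal axis), by arm; black points are the fit on all 6 libraries with its SE as a bar, crosses the fit without Treg replicate 3 and plus signs the fit without Control replicate 3. Hspa1a and Hspa1b lie above 0 with all libraries and below 0 without Treg replicate 3, whereas Herpud1, Hspb6 and Asns stay on their side of 0 in all 3 fits.

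Within the heat shock arm, the inducible HSP70 genes were high in a single library, Treg replicate 3. Hspa1a and Hspa1b encode the inducible HSP70, which is kept low in unstressed tissue. Hspa1a (chromosome 17, 34969190 to 34972156 on GRCm38, GENCODE M21) was at 3.49, 5.33 and 49.5 CPM in Treg libraries and at 5.26, 3.74 and 9.55 CPM in Control libraries. Hspa1b (chromosome 17, 34956436 to 34959238) was at 4.18, 5.91 and 55.1 CPM in Treg libraries and at 5.44, 4.76 and 9.49 CPM in Control libraries. For both genes that library was far above every other one, and the remaining Treg libraries lay within the Control range or below it. The log2 fold changes were 1.65 ± 0.96 and 1.73 ± 0.93 (SE), with edgeR adjusted p = 0.416 and 0.388. Without Treg replicate 3 they were −0.48 for Hspa1a and −0.38 for Hspa1b, so the sign of both rested on that library.

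Many reads of these neighbouring genes cannot be assigned to one of them. Of all 101-base windows in the annotated transcripts, 46.9% of those of Hspa1a also occur in Hspa1b, and 49.7% of those of Hspa1b occur in Hspa1a. With the counts of the pair summed, the level was 7.68, 11.2 and 104.6 CPM in Treg libraries and 10.7, 8.50 and 19.0 CPM in Control libraries. The summed pair had a log2 fold change of 1.69 ± 0.94 (SE) and an edgeR adjusted p of 0.402, close to the value of each gene alone. Exons of Gm20481, a gene on the opposite strand, also cover 19.0% of the exon bases of Hspa1a, and the sources used here do not say how strand was used in counting.

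The 250 bases before the start of Hspa1a are shown, at chr17:34972157-34972406 (minus strand, RefSeq on GRCm38.p6), because this gene and Hspa1b had the same pattern over the libraries. The promoter of Hspa1b is the same at 247 of the 250 positions. Capitals mark GAANNTTC, a core of 2 inverted heat shock element units that reads the same on both strands, 104 to 97 bases upstream of the start.
Hspa1a: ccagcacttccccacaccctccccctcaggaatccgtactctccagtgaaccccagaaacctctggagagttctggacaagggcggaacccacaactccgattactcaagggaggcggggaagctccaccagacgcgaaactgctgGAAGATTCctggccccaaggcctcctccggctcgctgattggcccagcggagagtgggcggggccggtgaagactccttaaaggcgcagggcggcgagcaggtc

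Hsph1 encodes HSP110, which exchanges nucleotide on HSP70 and helps it to dissolve aggregates. It lies on chromosome 5 (149614287 to 149636376). Its level was 24.5, 27.0 and 73.1 CPM in Treg libraries and 19.0, 18.7 and 11.2 CPM in Control libraries. The groups did not overlap, and the highest and the lowest library were replicate 3 of the Treg and of the Control group. The log2 fold change was 1.35 ± 0.44 (SE), with an edgeR adjusted p of 0.237 and a DESeq2 adjusted p of 0.0419. Leaving out Treg replicate 3 brought it to 0.66, with an edgeR adjusted p of 0.468, and leaving out Control replicate 3 to 1.14, with 0.37. With both left out it was 0.44, with an edgeR adjusted p of 0.178. No 101-base window of Hsph1 occurs in another gene. Its promoter, at chr5:149636337-149636586 (minus strand), is the one of 2 RefSeq windows for this gene that holds a core with the units in the other order, TTCNNGAA, here in capitals 33 to 26 bases upstream. This core lies within the GENCODE gene, whose annotated start is further upstream.
Hsph1: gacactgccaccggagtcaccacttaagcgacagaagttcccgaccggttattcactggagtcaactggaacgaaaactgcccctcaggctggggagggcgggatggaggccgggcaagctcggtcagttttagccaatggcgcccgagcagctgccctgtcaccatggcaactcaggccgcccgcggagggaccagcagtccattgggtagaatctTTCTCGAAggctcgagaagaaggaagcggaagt

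The J-domain partners of HSP70 had the same high library, with overlapping groups. Dnajb1, the main stress-inducible J-domain gene, was at 15.1, 15.6 and 41.2 CPM in Treg libraries and at 14.7, 15.2 and 22.3 CPM in Control libraries. Dnaja1, which serves the constitutive HSC70, was at 48.3, 55.2 and 104.8 CPM in Treg libraries and at 41.7, 48.0 and 67.6 CPM in Control libraries. In both genes replicate 3 was the highest library of either group, and Treg replicate 3 was the highest of all. The log2 fold changes were 0.46 ± 0.41 for Dnajb1 and 0.41 ± 0.32 for Dnaja1 (SE), with edgeR adjusted p = 0.572 and 0.532. Both turned below 0 without Treg replicate 3, to −0.18 and −0.02.

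Of the HSP90 genes, the inducible Hsp90aa1 was at 114, 137 and 218 CPM in Treg libraries and at 145, 154 and 167 CPM in Control libraries. The Control libraries lay inside the wide Treg range, and the log2 fold change was 0.01 ± 0.24 (SE). Without Treg replicate 3 it was −0.31, with an edgeR adjusted p of 0.533. Hsp90ab1, the constitutive form, was at 773, 767 and 941 CPM in Treg libraries and at 786, 594 and 774 CPM in Control libraries, with overlapping groups and a log2 fold change of 0.20 ± 0.18 (SE). Hspa8, the constitutive HSC70, was at 647, 729 and 869.8 CPM in Treg libraries and at 969.8, 759.7 and 781 CPM in Control libraries. It was the only gene of this cytosolic set whose highest library was a Control one, and its log2 fold change was −0.16 ± 0.18 (SE). Hsp90aa1 shares 37.8% and Hspa8 28.1% of their 101-base windows with other genes, mostly processed pseudogenes, so their counts are less certain than those of Hsp90ab1, which shares none.

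**Figure D2:**
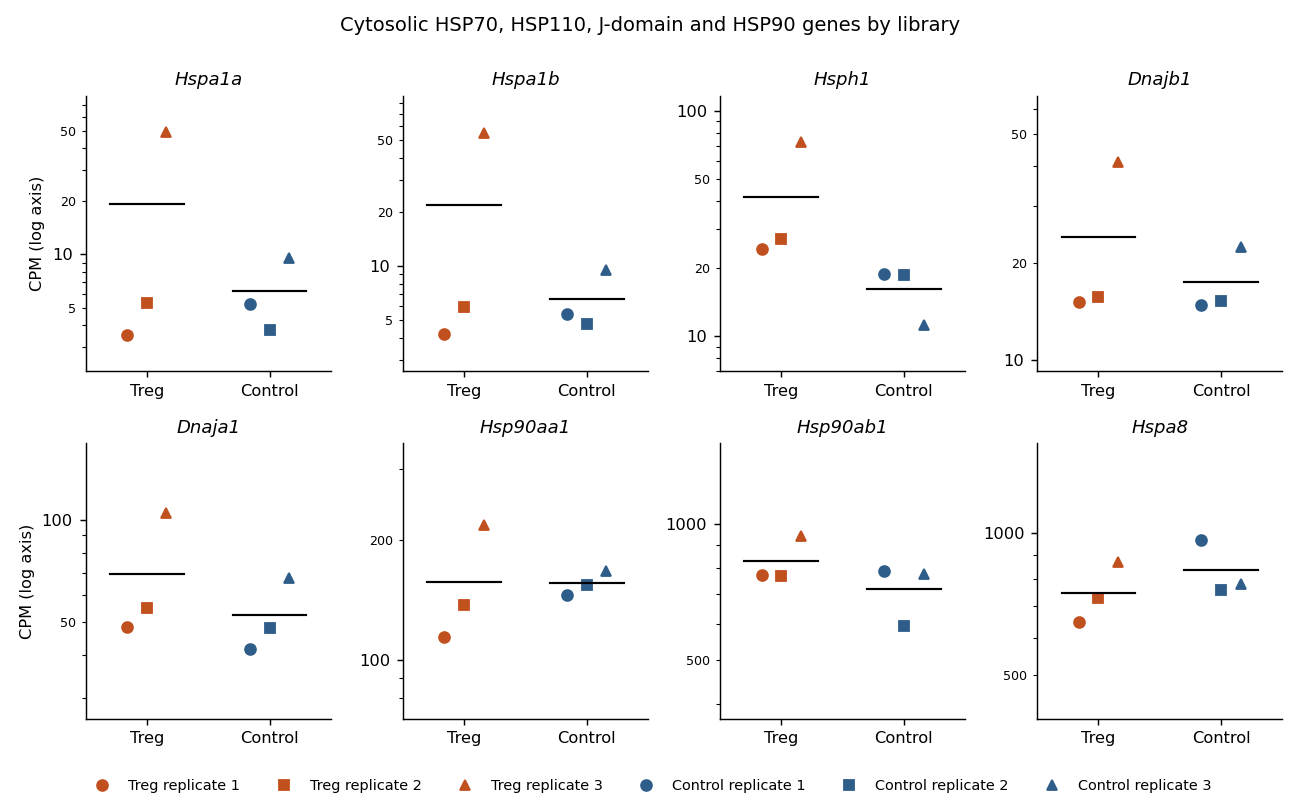
CPM (log axis) of 8 cytosolic chaperone and co-chaperone genes in each library, Treg left and Control right; symbols mark the replicate number and lines the group mean. Treg replicate 3 (triangle) is the highest library for 7 of the 8 genes, and Hspa8 is highest in Control replicate 1.

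Over the whole heat shock arm, Treg replicate 3 was the highest library for 9 of 15 members, whereas it was the highest for 10.68% of all genes tested. For Hspa8, Hspb1, Hspb7, Hspb8, Bag3 and Hspd1 a Control library was the highest. The median deviation of the arm's members from their mean over the 6 libraries, on the log2(CPM + 0.5) scale, was −0.21, −0.07 and 0.35 in Treg libraries and −0.34, −0.19 and 0.06 in Control libraries. The same library had the most transcript of immediate early genes, which are induced within minutes of stimulation. The summed level of the 12 genes listed was 334, 343 and 552 CPM in Treg libraries and 260.1, 312 and 369.8 CPM in Control libraries. Among them Atf3, a stress-induced transcription factor named after its values were seen, was at 7.28, 10.95 and 40.6 CPM in Treg libraries and at 6.49, 10.3 and 11.3 CPM in Control libraries. Gene by gene the order was mixed: 6 of the 12 were highest in Treg replicate 3, 5 in Control replicate 3 and 1 in Control replicate 2. Jun, among the 4 immediate early genes with the smallest p, was higher in all 3 Treg libraries than in any Control library. It was at 71.7, 59.6 and 106.0 CPM in Treg libraries and at 39.3, 39.6 and 27.8 CPM in Control libraries. Jun and Egr1 had log2 fold changes of 1.15 ± 0.24 and 0.95 ± 0.20 (SE), with edgeR adjusted p = 0.136 and 0.141 and DESeq2 adjusted p = 0.0015 and 0.00422. Btg2 (0.65 ± 0.29) and Ier3 (−0.60 ± 0.29) passed neither test. The part of the atrial transcripts and of the immediate early genes in the high chaperone values of Treg replicate 3 was not tested.

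**Figure D3:**
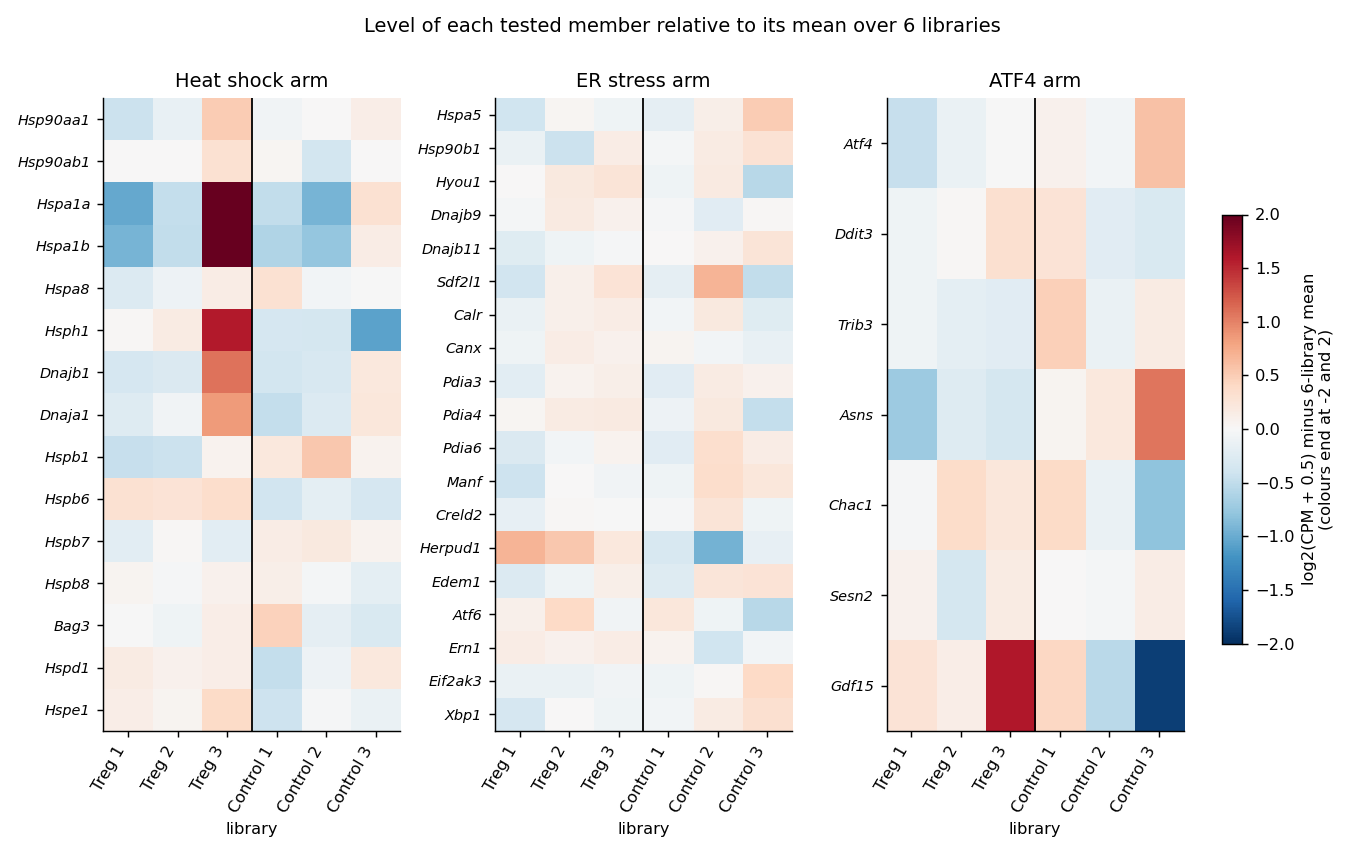
Level of each tested member in each library as log2(CPM + 0.5) minus its mean over the 6 libraries (red above, blue below, colours end at −2 and 2), with Treg libraries left of the line and Control libraries right of it. Hspa1a, Hspa1b, Hsph1, Dnajb1 and Dnaja1 are reddest in Treg replicate 3, and Hsph1 is bluest in Control replicate 3. Hspb6 and Herpud1 are red in all 3 Treg libraries.

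The small heat shock proteins, which bind unfolding protein without using ATP, had fold changes on both sides of 0. Hspb6 (HSP20, which binds actin structures in muscle; chromosome 7, 30552178 to 30555443) was at 370.3, 360.3 and 380.05 CPM in Treg libraries and at 228, 259.7 and 237 CPM in Control libraries. The groups did not overlap, and on this TMM-adjusted scale the libraries of each group lay close together, at 370.2 ± 9.86 CPM in Treg and 241 ± 16.4 CPM in Control (SD, n = 3 each). The log2 fold change was 0.62 ± 0.13 (SE), with an edgeR adjusted p of 0.136. DESeq2 called it, with an adjusted p of 9.61e-05, and of all members Hspb6 had the smallest edgeR p. The fold change was 0.60 without Treg replicate 3 and 0.60 without Control replicate 3 (edgeR adjusted p = 0.371 and 0.0868). Hspb6 shares no 101-base window with another gene, but exons of Proser3 on the opposite strand cover 5.3% of its exon bases. The cardiomyocyte markers had a median log2 fold change of 0.29, and their part in the higher level of this muscle gene was not tested.

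The Hspb6 promoter, at chr7:30553051-30553300 (plus strand), is the one of 2 RefSeq windows with a GAANNTTC core, in capitals 120 to 113 bases upstream. It lies within the GENCODE gene, whose longest form starts further upstream.
Hspb6: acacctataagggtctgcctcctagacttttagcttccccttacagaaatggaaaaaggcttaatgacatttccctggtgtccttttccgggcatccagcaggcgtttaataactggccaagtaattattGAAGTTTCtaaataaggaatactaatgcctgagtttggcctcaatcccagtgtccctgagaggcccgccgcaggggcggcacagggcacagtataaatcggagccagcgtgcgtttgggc
Of all 32851 RefSeq windows of this length, 6.69% hold GAANNTTC and 7.17% hold TTCNNGAA, and of the 12 heat shock members with a window 7 hold the first and 3 the second. The longer element of 3 units (GAA, TTC and GAA, each 2 bases from the next, on either strand) occurred in 0.466% of all windows and in 2 of these members, Hspd1 and Hspe1, which share a promoter. These are matches of letters, with no evidence of binding.

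Hspb1 (HSP27 in human, HSP25 in mouse) was at 133, 135 and 190.98 CPM in Treg libraries and at 212, 266 and 190.90 CPM in Control libraries. Treg replicates 1 and 2 were below every Control library, and replicate 3 was level between the groups. The log2 fold change was −0.54 ± 0.20 (SE), with an edgeR adjusted p of 0.265, a DESeq2 adjusted p of 0.151 and 0.0906 by edgeR with replicate 3 of both groups left out. A pseudogene, Hsp25-ps1, holds 43.9% of its 101-base windows, and the summed level of the gene and its copy was 142, 146 and 204 CPM in Treg libraries and 229, 285 and 203 CPM in Control libraries. Hspb7, a heart-enriched small heat shock protein that binds titin and filamin structures, was at 2336, 2729.7 and 2339 CPM in Treg libraries and at 2987, 3075 and 2819 CPM in Control libraries. The groups did not overlap, but the log2 fold change was −0.26 ± 0.15 (SE), with an edgeR adjusted p of 0.414. Hspb8 and Bag3 form a complex that delivers damaged muscle protein to autophagy. Hspb8 was at 382, 363 and 389 CPM in Treg libraries and at 398, 356 and 319 CPM in Control libraries. Bag3 was at 178, 168 and 197 CPM in Treg libraries and at 246, 157 and 146 CPM in Control libraries. Both overlapped between groups, with log2 fold changes of 0.08 ± 0.14 and −0.02 ± 0.22 (SE), which without Control replicate 3 were 0.002 and −0.16.

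Hspd1 (HSP60) and Hspe1 (HSP10) form the chaperonin of the mitochondrial matrix. Hspe1 was at 37.9, 36.0 and 45.1 CPM in Treg libraries and at 25.7, 33.7 and 31.4 CPM in Control libraries. Every Treg library was above every Control library, by a narrow margin between Treg replicate 2 and Control replicate 2. With a log2 fold change of 0.39 ± 0.15 (SE), it had an edgeR adjusted p of 0.281. Hspd1 was at 228, 218 and 223 CPM in Treg libraries and at 146, 189.9 and 236 CPM in Control libraries, with Control replicate 3 above all others and a log2 fold change of 0.23 ± 0.19 (SE). Without that library it was 0.41, with an edgeR adjusted p of 0.21. The genes lie head to head, and their exons overlap on opposite strands by 112 bases.

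**Figure D4:**
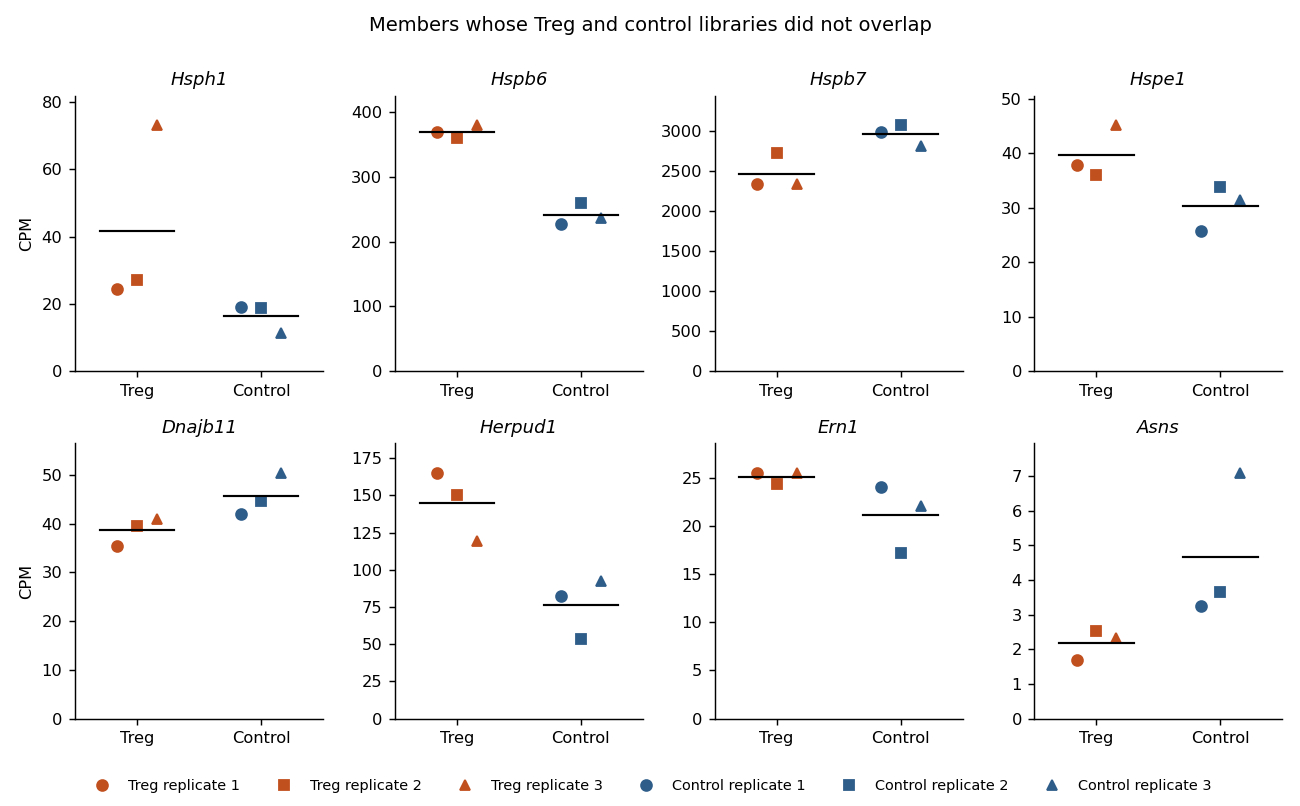
CPM (axes from 0) in each library of the 8 members whose Treg (left) and Control (right) libraries did not overlap; symbols mark the replicate number and lines the group mean. Hspb6 shows a gap between the groups that is wider than the spread within either, whereas for Ern1 and Dnajb11 the nearest libraries of the groups are nearly level.

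A wider list of 41 tested genes of the heat shock network had a median log2 fold change of −0.02. None passed edgeR's adjusted threshold, 5 were higher and 3 lower in Treg at an unadjusted p under 0.05, and DESeq2 called 2 higher and 1 lower. Over all genes tested these shares were 8.23% and 8.31% at the unadjusted p. By DESeq2 they were 1.93% and 1.97% of the genes given an adjusted p. The list was chosen with earlier results of these data known, so nothing is read from its counts. Fkbp4, an HSP90 co-chaperone of steroid receptor complexes, was at 151, 136 and 138 CPM in Treg libraries and at 63.8, 79.7 and 64.1 CPM in Control libraries. Every Treg library was well above every Control library, with a log2 fold change of 1.04 ± 0.14 (SE), an edgeR adjusted p of 0.0871 and a DESeq2 adjusted p of 6.41e-08. Hspb2, a small heat shock protein of heart and skeletal muscle, was lower, at 38.3, 40.1 and 38.2 CPM in Treg libraries and at 57.2, 66.9 and 73.0 CPM in Control libraries. Its log2 fold change was −0.76 ± 0.13 (SE), with an edgeR adjusted p of 0.0989. Without Control replicate 3, edgeR called both genes, with adjusted p = 0.0294 for Fkbp4 and 0.0382 for Hspb2, among the 1.3% of genes called by that fit, and it called no member of any of the 3 arms. Hsf1, the gene of the heat shock factor itself, was at 21.3, 24.7 and 23.8 CPM in Treg libraries and at 17.1, 16.6 and 13.9 CPM in Control libraries, a log2 fold change of 0.55 ± 0.14 (SE) with an edgeR adjusted p of 0.174 and a DESeq2 adjusted p of 0.0419. Cct8, a subunit of the cytosolic chaperonin for actin and tubulin, had −0.47 ± 0.14 (SE), with an edgeR adjusted p of 0.216.

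In the ER arm the 11 chaperones, lectins and isomerases had log2 fold changes between −0.31 and 0.28, and none was called by edgeR or DESeq2. Herpud1, a degradation factor, was the only member of the arm that DESeq2 called. Hspa5 (BiP), the HSP70 of the ER and the standard readout of ER stress, was at 262, 353 and 325 CPM in Treg libraries and at 303, 371 and 491 CPM in Control libraries. The groups overlapped, and Control replicate 3 was the highest library. The log2 fold change was −0.31 ± 0.21 (SE), with an edgeR adjusted p of 0.48, and it was −0.11 without Control replicate 3. Hsp90b1 (GRP94), the HSP90 of the ER, was at 177, 145 and 216 CPM in Treg libraries and at 191, 219.5 and 238 CPM in Control libraries, with overlapping groups and a log2 fold change of −0.27 ± 0.18 (SE).

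The Hspa5 promoter is shown as the textbook ER stress promoter, at chr2:34771840-34772089 (plus strand, RefSeq on GRCm38.p6). Capitals mark the ER stress response element, CCAAT and CCACG separated by 9 bases, 65 to 47 bases upstream of the RefSeq start. It lies within the GENCODE gene, whose annotated start is further upstream.
Hspa5: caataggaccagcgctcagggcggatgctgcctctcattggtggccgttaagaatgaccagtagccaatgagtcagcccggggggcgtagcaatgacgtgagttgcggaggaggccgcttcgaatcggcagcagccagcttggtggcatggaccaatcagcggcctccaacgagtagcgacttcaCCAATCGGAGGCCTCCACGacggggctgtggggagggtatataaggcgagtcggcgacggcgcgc
That element, on either strand, occurred in 0.113% of all windows and in 6 of the 16 ER members with a window (Calr, Canx, Creld2, Hsp90b1, Hspa5 and Pdia6). The log2 fold changes of these 6 lay between −0.31 for Hspa5 and 0.10 for Canx.

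Of the other ER chaperones, Hyou1, a large HSP70 relative, was at 32.6 to 38.9 CPM in Treg libraries and 21.96 to 37.1 CPM in Control libraries. It had a log2 fold change of 0.28 ± 0.20 (SE), which was 0.10 without Control replicate 3, and Sdf2l1, a partner of BiP, had −0.08 ± 0.37. Both overlapped between groups, and Sdf2l1 was low throughout, at 2.93 to 4.93 CPM in Treg libraries and 2.69 to 6.65 CPM in Control libraries. The J-domain gene Dnajb11 was at 35.3, 39.5 and 41.01 CPM in Treg libraries and at 41.97, 44.6 and 50.4 CPM in Control libraries. Its groups did not overlap, but Treg replicate 3 and Control replicate 1 were nearly level, and the log2 fold change was −0.24 ± 0.13 (SE) with an edgeR adjusted p of 0.368. Dnajb9, a J-domain gene that holds IRE1 inactive, was at 28.6 to 33.3 CPM in Treg libraries and 24.8 to 29.7 CPM in Control libraries, with 0.16 ± 0.13 (SE). The lectin chaperones Calr and Canx hold glycoproteins during folding. Calr was at 169 to 206 CPM in Treg libraries and 157 to 213 CPM in Control libraries, and Canx at 205 to 239 CPM in Treg libraries and 195 to 225 CPM in Control libraries. Their log2 fold changes were 0.07 ± 0.16 and 0.10 ± 0.13 (SE). Among the disulfide isomerases, Pdia3 was at 141 to 175 CPM in Treg libraries and 139 to 181 CPM in Control libraries, Pdia4 at 26.2 to 28.99 CPM in Treg libraries and 18.2 to 29.5 CPM in Control libraries, and Pdia6 at 66.5 to 85.5 CPM in Treg libraries and 69.7 to 102 CPM in Control libraries. All 3 overlapped between the groups, and their log2 fold changes were −0.02 ± 0.16, 0.23 ± 0.18 and −0.19 ± 0.18 (SE). Without Control replicate 3 that of Pdia4 was 0.07. The lowest edgeR adjusted p of these 5 was 0.534, that of Pdia4.

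The secreted ER stress proteins Manf and Creld2 had fold changes below 0. Manf was at 19.4, 26.1 and 24.7 CPM in Treg libraries and at 24.4, 33.5 and 30.7 CPM in Control libraries, and Treg replicates 2 and 3 lay above Control replicate 1. Its log2 fold change of −0.34 ± 0.17 (SE) was the lowest of the ER arm, with an edgeR adjusted p of 0.368. Creld2 was at 10.1 to 11.6 CPM in Treg libraries and 10.8 to 13.8 CPM in Control libraries, with −0.12 ± 0.16 (SE).

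Herpud1, an ER membrane protein that organises the ubiquitin ligase complex for ER-associated degradation and is induced through all 3 sensors, lies on chromosome 8 (94386438 to 94395377). It was at 165, 150.2 and 119.5 CPM in Treg libraries and at 82.3, 53.7 and 92.5 CPM in Control libraries. Every Treg library was above every Control library, at 145 ± 23.3 CPM in Treg and 76.2 ± 20.1 CPM in Control (SD, n = 3 each). The log2 fold change was 0.93 ± 0.23 (SE), with an edgeR adjusted p of 0.168 and a DESeq2 adjusted p of 0.0105. It was 1.05 without Treg replicate 3 and 1.09 without Control replicate 3, with edgeR adjusted p = 0.342 and 0.0651, and it stayed between 0.73 and 1.09 whichever single library was left out. Unlike the inducible HSP70 genes, Herpud1 was lowest within the Treg group in Treg replicate 3. No 101-base window of Herpud1 occurs in another gene. Edem1, a lectin that directs glycoproteins into the same degradation route, was at 21.02 to 27.6 CPM in Treg libraries and 21.3 to 30.8 CPM in Control libraries, with overlapping groups and a log2 fold change of −0.18 ± 0.18 (SE).

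The Herpud1 promoter is shown because it is the member of this arm called by DESeq2, at chr8:94386179-94386428 (plus strand, RefSeq on GRCm38.p6). Capitals mark 2 matches: TTGCATCA, which is the C/EBP-ATF response element TGATGNAA on the opposite strand, 112 to 105 bases upstream, and ATTGGGCCACG, the second ER stress response element (ATTGG and CCACG separated by 1 base), 52 to 42 bases upstream.
Herpud1: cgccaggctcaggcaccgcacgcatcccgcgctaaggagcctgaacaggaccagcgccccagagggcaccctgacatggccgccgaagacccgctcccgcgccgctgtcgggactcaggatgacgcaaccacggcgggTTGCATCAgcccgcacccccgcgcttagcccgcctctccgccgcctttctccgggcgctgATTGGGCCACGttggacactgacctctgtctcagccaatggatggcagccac
The second ER stress response element occurred in 0.0304% of all windows, in either orientation, and among the members with a window in Herpud1 alone. TGATGNAA occurred in 3.45% of all windows, in Herpud1 alone among the ER members, and in Asns, Chac1 and Fgf21 of the ATF4 arm.

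The sensors of ER stress and Xbp1 had log2 fold changes between −0.29 and 0.26. Ern1 (IRE1) was at 25.5, 24.4 and 25.5 CPM in Treg libraries and at 24.1, 17.2 and 22.1 CPM in Control libraries. The Treg libraries were all above the Control ones, Treg replicate 2 and Control replicate 1 being nearly level, and the log2 fold change was 0.25 ± 0.15 (SE) with an edgeR adjusted p of 0.428. Eif2ak3 (PERK) was at 12.2, 12.3 and 12.7 CPM in Treg libraries and at 12.7, 13.6 and 18.0 CPM in Control libraries, overlapping only where Treg replicate 3 and Control replicate 1 were level, with a log2 fold change of −0.25 ± 0.17 (SE) that was −0.08 without Control replicate 3. Atf6 was at 136, 167 and 120.4 CPM in Treg libraries and at 148, 119.9 and 86.0 CPM in Control libraries, with overlapping groups and a log2 fold change of 0.26 ± 0.22 (SE) that was 0.07 without Control replicate 3. Xbp1 was at 40.7, 51.8 and 48.8 CPM in Treg libraries and at 49.6, 58.1 and 64.6 CPM in Control libraries, with overlapping groups and a log2 fold change of −0.29 ± 0.15 (SE). Counts per gene do not show the splicing of Xbp1 by IRE1, the cleavage of ATF6 or the phosphorylation of PERK, so activity of the sensors was not measured.

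A wider list of ER folding, translocation and degradation genes, of which 43 of 44 were tested, had a median log2 fold change of −0.20. None passed edgeR's adjusted threshold. At an unadjusted p under 0.05 by edgeR, 0 were higher and 8 lower in Treg, against 8.23% and 8.31% of all genes. DESeq2 called 0 higher and 2 lower, against 1.93% and 1.97% of the genes given an adjusted p. This list too was chosen with earlier results of these data known, so nothing is read from its counts. Creb3l1, an ER-bound transcription factor known for collagen secretion, was at 4.28, 3.86 and 6.09 CPM in Treg libraries and at 8.24, 9.33 and 15.5 CPM in Control libraries. P4hb, a disulfide isomerase that is also a subunit of the enzyme hydroxylating collagen, was at 230.4, 235 and 295 CPM in Treg libraries and at 347, 378 and 485 CPM in Control libraries. Both genes were lower in every Treg library than in any Control library, with log2 fold changes of −1.22 ± 0.30 and −0.67 ± 0.18 (SE). Their edgeR adjusted p were 0.165 and 0.198, and their DESeq2 adjusted p 0.00806 and 0.0216. Creb3, a related ER-bound factor, had −0.47 ± 0.13 (SE) and Ssr4, a subunit of the translocon-associated complex, −0.50 ± 0.16, and neither was called by either tool. The summed level of the 7 fibroblast markers was 3704, 2625 and 4344 CPM in Treg libraries and 3933, 5529 and 3195 CPM in Control libraries, with overlapping groups. Their median log2 fold change was −0.34, with 4 below 0 and 3 above. It was −0.59 without Treg replicate 3 and −0.11 without Control replicate 3. The part of fibroblasts in the values of these ER genes was not tested.

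In the ATF4 arm the log2 fold changes of the tested members lay on both sides of 0. Atf4 itself, whose protein is controlled mainly through translation, was at 62.6, 78.5 and 85.7 CPM in Treg libraries and at 91.8, 83.5 and 129.9 CPM in Control libraries. The groups overlapped by 1 library each, and the log2 fold change was −0.43 ± 0.20 (SE), with an edgeR adjusted p of 0.339. It was −0.21 without Control replicate 3, the highest library.

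Asns, the asparagine synthetase gene and a direct ATF4 target, lies on chromosome 6 (7675169 to 7693254). It was at 1.68, 2.52 and 2.32 CPM in Treg libraries and at 3.26, 3.67 and 7.10 CPM in Control libraries. The groups did not overlap, and Control replicate 3 was far above the other libraries. The log2 fold change was −1.10 ± 0.35 (SE), with an edgeR adjusted p of 0.225 and a DESeq2 adjusted p of 0.0726. Without Control replicate 3 it was −0.67, with an edgeR adjusted p of 0.178. The promoter is shown at chr6:7693210-7693459 (minus strand, RefSeq on GRCm38.p6), with the TGATGNAA match in capitals 23 to 16 bases upstream. This match lies within the GENCODE gene, whose annotated start is further upstream.
Asns: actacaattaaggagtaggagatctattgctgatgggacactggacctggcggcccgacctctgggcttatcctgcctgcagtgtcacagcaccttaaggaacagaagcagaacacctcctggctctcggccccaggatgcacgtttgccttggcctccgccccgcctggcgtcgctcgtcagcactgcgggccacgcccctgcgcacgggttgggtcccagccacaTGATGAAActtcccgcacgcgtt

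The other targets were low and overlapped between the groups. Trib3, a pseudokinase that restrains ATF4 and AKT, was at 2.44, 2.23 and 2.17 CPM in Treg libraries and at 3.86, 2.35 and 2.99 CPM in Control libraries, with a log2 fold change of −0.43 ± 0.24 (SE). Ddit3 (CHOP), the pro-apoptotic factor of prolonged ER stress, was at 14.1, 15.3 and 19.0 CPM in Treg libraries and at 18.2, 12.8 and 12.1 CPM in Control libraries, with 0.17 ± 0.21 (0.04 without Treg replicate 3). Chac1, which degrades glutathione, was at 3.56, 4.83 and 4.30 CPM in Treg libraries and at 4.87, 3.24 and 1.85 CPM in Control libraries, with 0.35 ± 0.34. None of these had Treg and Control libraries apart, and Chac1 had 0.06 without Control replicate 3. Sesn2, a leucine sensor that restrains mTORC1, had −0.07 ± 0.21 (SE), with Treg libraries at 3.28 to 4.90 CPM and Control libraries at 4.20 to 4.84 CPM.

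Of the hormones, Gdf15, a cytokine raised by many kinds of tissue stress, was at 4.28, 3.86 and 11.5 CPM in Treg libraries and at 4.80, 2.22 and 0.572 CPM in Control libraries. The extremes were again replicate 3 of each group, high in Treg and low in Control, and the groups overlapped. Its log2 fold change was 1.38 ± 0.72 (SE), with an edgeR adjusted p of 0.373. It was 0.69 without Treg replicate 3, 0.91 without Control replicate 3 and 0.21 without both, with an edgeR adjusted p of 0.839. Fgf21 had 0, 3 and 1 counts in Treg libraries and 2, 2 and 0 counts in Control libraries, at or under a floor of 3 counts per library in each, and no fold change is given.

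The wider list of the ATF4 and integrated stress response, 47 genes, all tested, had a median log2 fold change of −0.13. None passed edgeR's adjusted threshold. At an unadjusted p under 0.05 by edgeR, 3 were higher and 12 lower in Treg, against 8.23% and 8.31% of all genes. DESeq2 called 1 higher and 3 lower, against 1.93% and 1.97% of the genes given an adjusted p. As with the other wider lists, earlier results of these data were known when it was chosen, so nothing is read from its counts. Slc38a2, the amino acid transporter SNAT2 and an ATF4 target, was at 203, 220.1 and 251 CPM in Treg libraries and at 359.8, 393 and 378 CPM in Control libraries. Its log2 fold change was −0.75 ± 0.14 (SE), with an edgeR adjusted p of 0.117 and a DESeq2 adjusted p of 4.7e-05. Gpt2, the mitochondrial alanine transaminase, was higher, at 21.5, 21.5 and 17.4 CPM in Treg libraries and at 9.26, 11.8 and 5.28 CPM in Control libraries. Its log2 fold change was 1.195 ± 0.28 (SE), with an edgeR adjusted p of 0.16 and a DESeq2 adjusted p of 0.00628. In both genes the groups lay apart. Gars, the glycyl-tRNA synthetase gene, was lower in every Treg library than in any Control library, with −0.43 ± 0.11 (SE), an edgeR adjusted p of 0.171 and a DESeq2 adjusted p of 0.0157. Eif4ebp1, a repressor of translation that ATF4 induces, had −0.64 ± 0.19 (SE) and was called by neither tool.

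Compared per length of transcript, as TPM (counts divided by exon length and scaled to a common total), Hspb7 was the most abundant member, and the ATF4 targets Sesn2, Asns, Trib3 and Fgf21 were the least abundant. Hspb7 had a level of 1499 ± 79.7 TPM in Treg and 1830 ± 106 TPM in Control (SD, n = 3 each), the highest of all 42. Hsp90ab1 followed at 469.8 ± 105 TPM in Treg and 409 ± 53.0 TPM in Control, and Hspb8, Hspa8 and Hspb1 came next, with means over the 6 libraries of 321, 314 and 313 TPM that lay closer to each other than the spread between libraries. Hspb6 was at 273 ± 36.6 TPM in Treg and 180.1 ± 18.0 TPM in Control. TMM factors were not used for TPM, and the Treg libraries of Hspb6 were further apart, for their mean, than in CPM. In the ER arm Hspa5 had the highest level, at 125 ± 19.8 TPM in Treg and 158 ± 42.1 TPM in Control, ahead of Calr at 112 ± 18.7 TPM in Treg and 109 ± 18.6 TPM in Control. In the ATF4 arm Atf4 led, at 54.4 ± 12.2 TPM in Treg and 73.9 ± 18.8 TPM in Control, whereas Sesn2, Asns and Trib3 had means of 2.13 to 2.16 TPM over the 6 libraries and Fgf21 had 0.08 TPM.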

How the data were processed

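The authors deposited 1 table of gene-level estimated counts, not normalized, and 46.5% to 50.0% of each library's nonzero values are not whole. Build GRCm38 and the tools HISAT2 2.1.0, featureCounts 2.0.6, Trimmomatic 0.39 and Cuffdiff 2.2.1 are named, per the submitters' processing notes. The sources used here give neither their roles nor the annotation or counting options, so counts of genes with near-identical copies or antisense partners are uncertain. In the same table, 6 columns match no sample listed here and were not used. Per the labels' protocols, stranded mRNA libraries were read as pairs of 101 bases.

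Symbols, coordinates and exon lengths came from GENCODE M21 (GRCm38). Estimated counts were rounded (totals changed by at most 0.0087%), filtered with filterByExpr, scaled with TMM and tested with edgeR 4.0.16 in R 4.3.3 (robust quasi-likelihood, two-sided, no covariates, Benjamini-Hochberg over 17365 genes). The test had been planned for whole counts. SE was taken as the log2 fold change over the square root of its F statistic. Alternatives were DESeq2 1.42.0, limma-voom (limma 3.58.1), other scalings and filters, a replicate block and omission of libraries. The fits were checked on simulated data, which held no library that stood apart as Control replicate 3 did. DESeq2 gave Hspa1a and Hspa1b neither an unadjusted nor an adjusted p. All 42 members could be named, and of each wider list and of the immediate early genes the 4 with the smallest p. Members and lists were chosen with earlier results of these data known. Sequences are from RefSeq (GRCm38.p6), which held windows for 36 of the 42 members.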

Additional observations from a re-analysis of the deposited data

How the results depend on the processing

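The number of genes called by edgeR, 0 in the main fit, was 650 with DESeq2, 38 without a filter, 119 without replicate 3 of both groups and 82 at an adjusted p under 0.1. Leaving out 1 library gave 0 to 230, the highest without Control replicate 3. DESeq2 called 2 members of the heat shock arm, 1 of the ER arm and 0 of the ATF4 arm, and no other alternative called a member. With 1 library left out, the heat shock median (log2) lay between −0.077 (Treg replicate 3 left out) and 0.407, the ER median between −0.15 and 0.079, crossing 0 when Treg replicate 1 or Control replicate 2 was left out (0.079 and 0.062), and the ATF4 median between −0.172 and 0.093. Without replicate 3 of both groups the heat shock median was −0.024. Of 657 member fold changes under alternatives, 626 kept direction and call, 3 passed the threshold with DESeq2 and 28, in 12 members, changed sign, none of them called. With 1 library left out, such members ranged from −0.306 to 0.194 (Hsp90aa1), −0.485 to 2.15 (Hspa1a), −0.377 to 2.22 (Hspa1b), −0.181 to 0.708 (Dnajb1), −0.0168 to 0.63 (Dnaja1), −0.156 to 0.266 (Bag3), −0.323 to 0.391 (Sdf2l1), −0.0337 to 0.186 (Calr), −0.115 to 0.0787 (Pdia3) and −0.172 to 0.0927 (Sesn2). Without replicate 3 of both groups, the values were −0.262 for Hsp90aa1, −0.0369 for Hspa1a, −0.0244 for Hspa1b, −0.028 for Hspb8, −0.0982 for Calr and −0.0847 for Ddit3. Limma-voom gave −0.0469 for Hsp90aa1 and 0.0201 for Bag3, no filter gave 0.0043 for Bag3 and 0.0109 for Pdia3, and protein-coding genes only gave −0.0002 for Hsp90aa1. The cause was not tested, except that a fit without a library has fewer samples.

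The labels state no pairing, so the numbers were not taken as pairs. Deviations from the group means had correlations of −0.142, −0.236 and 0.042 between same-numbered libraries. With 3 libraries per group these deviations depend on each other, so the values cannot exclude pairing. With the replicate block, edgeR called 0 genes, Hsp90aa1 was at −0.0455 and Bag3 at 0.0226, and the medians were 0.253 for the heat shock, −0.014 for the ER and −0.084 for the ATF4 arm. Among the members, counts were too low for a test in Fgf21.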

Other observations

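Within the wider lists, the listed genes of some protein complexes all lay on one side of 0. These groupings were made after the values were seen and carry no test. Genes of the complexes that are not on the lists were not examined. All 8 subunits of the cytosolic chaperonin CCT, which folds actin and tubulin, had log2 fold changes below 0, with a median of −0.35 (−0.15 without Control replicate 3), and 2 of the 8 had an unadjusted p under 0.05, against 8.31% of all genes in that direction. Their summed level was 739, 747 and 798 CPM in Treg libraries and 807, 923 and 1184 CPM in Control libraries, so every Treg library was below every Control library and Control replicate 3 was the highest.

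The 11 listed genes of the ER translocon and signal peptidase, through which secreted and membrane proteins enter the ER, were also all below 0. Their median was −0.39 (−0.36 without Control replicate 3). Of these, 5 had an unadjusted p under 0.05, against the same 8.31% of all genes; since the set was formed with its values known, nothing is read from either count. Their summed level was 526, 526 and 585 CPM in Treg libraries and 591, 759 and 812 CPM in Control libraries. Of the 12 listed tRNA synthetase genes, 9 were below 0 and 3 above, with a median of −0.13. Their summed level was 589, 632 and 609 CPM in Treg libraries and 731, 677 and 654 CPM in Control libraries. The members of the ER arm that fold protein after entry (chaperones, lectins and isomerases) had 5 of 11 above 0, with a median of −0.02.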
